A study of Mus musculus with 9 samples.

Results

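The genes described here make cholesterol, sense it, carry it between membranes or move it out of the cell. The list holds 33 genes in 6 roles: from acetyl-CoA units to squalene, from squalene to cholesterol, control of the SREBP factors, the LXR receptors, export and lipoprotein handling, and transport and storage. All probes whose annotated symbol was on the list were taken, which gave 55 of 45281 probes, for 29 of 19057 genes with a symbol on the array. Hmgcs1, Fdft1, Nr1h2 and Soat1 had no probe under those symbols and were not analysed here. The single probe of Abca1, an LXR target that exports cholesterol, gave 120 to 201 units of raw signal, was above background on 0 of the 9 arrays and was left out of the tests. The other 28 genes were tested among 18830 features, 13716 of them genes with a symbol.

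RNA came from RAW264.7, a mouse macrophage line grown in alpha-MEM with serum. Control cells had no treatment. Knock-down cells held a stable short hairpin RNA (shNFAT5) directed at Nfat5, the gene of a transcription factor that answers high salt. Decoy cells were stably transfected with oligonucleotides holding the binding consensus of NFAT5, which compete for the protein. Each group had 3 Illumina bead arrays. No unrelated hairpin or oligonucleotide was analysed here, so NFAT5 and the handling of the cells cannot be told apart in either comparison with control. Neither separate cultures nor clones are mentioned in the labels. The p-values therefore reflect variation among these 3 samples a group, and that may be technical.

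Cholesterol is built from acetyl-CoA through mevalonate and farnesyl pyrophosphate to squalene, which is closed into lanosterol and trimmed step by step to cholesterol. When membranes run short of cholesterol, Scap carries the SREBP factors from the endoplasmic reticulum to the Golgi, where they are cut and released to switch on the genes of this pathway. Insig proteins hold Scap back when sterols are plentiful. Oxysterols switch on the LXR receptors, which in macrophages raise genes of cholesterol export.

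The control arrays stood apart from the other 6 in raw signal. The upper quartile of raw signal was 319 to 336 units on them, against 209 to 257 with the knock-down and 214 to 237 with the decoy. Probes above background made up 34.1% to 34.9% of a control array, but 21.5% to 27.1% of a knock-down and 24.5% to 27.0% of a decoy array. The median SD between arrays of a group was 0.0909 (log2) in control, rising to 0.221 with the knock-down and 0.182 with the decoy. The brightest Nfat5 probe gave 5049, 4591 and 4857 units in control, 1428, 1051 and 734 in knock-down and 2083, 1731 and 1430 in decoy cells. After normalization it fell 2.04-fold in knock-down cells (limma, adjusted p = 1.89e-05) and 1.40-fold in decoy cells (adjusted p = 0.0106), while a second, dimmer Nfat5 probe rose by 0.65 (limma over all probes, adjusted p = 0.00153) and 0.72 (0.00107) in log2. Of 9 macrophage markers with a probe, 4 were above background on all 9 arrays and 1, Itgam, on none. Their summed raw signal was 91574 to 94146 units in control, 55451 to 98083 in knock-down and 76904 to 86284 in decoy cells. In knock-down cells 2 of these 9 were called higher and 3 lower, and in decoy cells 2 and 4, where median scaling gave 0 and 5, and 1 and 4. These counts are to be read beside the calls over all features, given below for both scalings. Csf1r and Spi1 fell under both scalings (-1.38 and -0.93 in knock-down, -0.96 and -0.73 in decoy cells). Lyz2 went the other way, at 1.12 in knock-down and 1.09 in decoy cells. With median scaling Lyz2 gave 0.34 without a call in knock-down cells and 0.40, still called, in decoy cells. Fcgr1 gave -0.41 in knock-down and 0.73 in decoy cells, and was lower in knock-down than in decoy cells by -1.13. Hepatocyte and lymphocyte markers were above background on none of the arrays, as were 6 of 7 fibroblast and 4 of 5 adipocyte markers. Lep, the adipocyte marker that was tested, was above background on 2 of the 9 arrays and called higher in both lines, by at least 1.61-fold and 1.40-fold. The part of these markers in the sterol results was not tested. Quantile normalization was used for all values below unless stated otherwise. It makes the arrays' distributions alike, so a gene whose raw signal kept level while most bright signals dropped comes out higher. The raw medians stood at 150 to 158 units in control, 172 to 187 in knock-down and 156 to 167 in decoy cells. Each lay below the background limit of its array, so median scaling, used below as an alternative, rests on dim probes. In bulk samples, fewer cells of a type and less RNA per cell cannot be told apart.

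Sterol genes moved in both directions within the pathway, and did so in both lines. In knock-down cells, 12 of the 28 genes were called higher and 8 lower at a Benjamini-Hochberg adjusted p below 0.05 in limma. Over all features 24.3% were called higher and 23.1% lower, so calls were common. In decoy cells 9 were called higher and 4 lower, against 16.9% and 17.8% of all features. The counts by role and by list below are to be read beside these shares, and no list was tested against them. The 12 and the 9 higher genes both include Mylip, which passed the filter on dim probes only through treated arrays. They also include Nsdhl and Insig1, each on a probe that was its gene's brightest only through treated arrays. Without control replicate 3 the decoy count of higher genes was 5, and without control replicate 2 that of lower genes was 1. The median difference of the 28 genes was 0.186 in log2 in knock-down cells and 0.188 in decoy cells, beside 0.0345 and 0.0237 for all features. By at least 2-fold, Cyp51, Nsdhl and Insig1 were called higher and Msmo1 and Npc2 lower in knock-down cells, where 4.21% and 6.28% of all features reached that size. In decoy cells Cyp51, Nsdhl, Hsd17b7 and Insig1 were called higher by that size and Msmo1 lower, where 2.32% and 3.55% of features did. Both comparisons use the same 3 control arrays. The moderated F test over the 3 groups called 19 of the 28 genes and 45.8% of all features. Among the 22 genes whose probe was above background on all 9 arrays, 11 were called higher and 5 lower in knock-down cells and 8 higher and 3 lower in decoy cells. Among the 6008 genes that met the same condition, 40.6% were called higher and 22% lower in knock-down cells, and 28.9% and 17.5% in decoy cells.

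**Figure D1:**
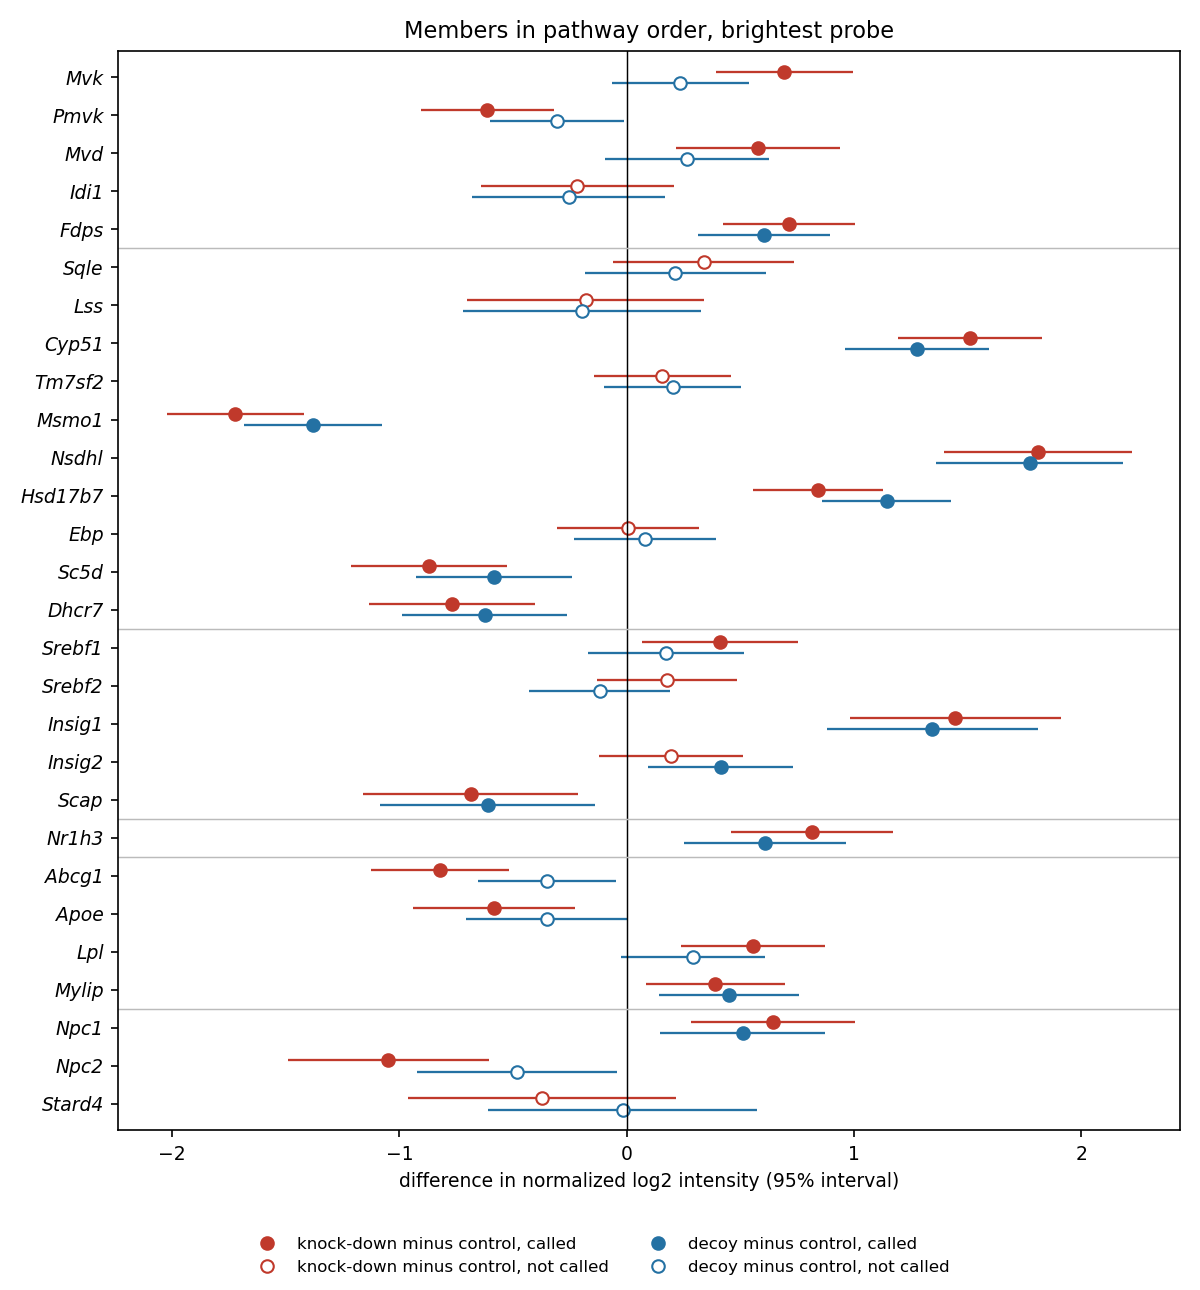
Differences in normalized log2 intensity from control for the 28 tested genes in pathway order, with 95% intervals (3 arrays a group); red is knock-down, blue is decoy, filled points are called and grey lines part the 6 roles. Nsdhl, Cyp51 and Insig1 lie farthest to the right and Msmo1 farthest to the left in both comparisons.

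The raw signals read differently from the normalized ones. The raw ranges of the knock-down and control arrays did not overlap for 18 of the 28 genes, and the knock-down was the higher group for 1 of them and the lower for 17. Over all features 22.8% lay higher and 43.7% lower without overlap. In decoy cells 4 genes lay higher in raw signal without overlap (Cyp51, Nsdhl, Insig1 and Mylip) and 21 lower, beside 14.8% and 52.9% of all features. When each array was instead scaled to one shared median, the median of all features itself moved to -0.428 in log2 for knock-down and -0.373 for decoy against control. Under that scaling Nsdhl and Mylip were the 2 genes called higher in either comparison and 18 were called lower. Of the 18830 features, about 1580 were then called higher and 9060 lower in knock-down cells, and 1310 and 8090 in decoy cells. Mylip was also the 1 gene higher in raw knock-down signal, but it was above background on none of the 9 arrays. Cyp51 and Insig1 stayed above 0 without being called in both lines, as Hsd17b7 did in decoy cells. The other genes called higher with quantiles changed sign. These were Mvk, Mvd, Fdps, Hsd17b7, Srebf1, Nr1h3, Lpl and Npc1 in knock-down cells, and Fdps, Insig2, Nr1h3 and Npc1 in decoy cells. Relative to the shift of all features, 7 of the 12 genes called higher in knock-down cells still lay above it, as did 7 of the 9 in decoy cells. All 8 and all 4 genes called lower lay below it.

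**Figure D2:**
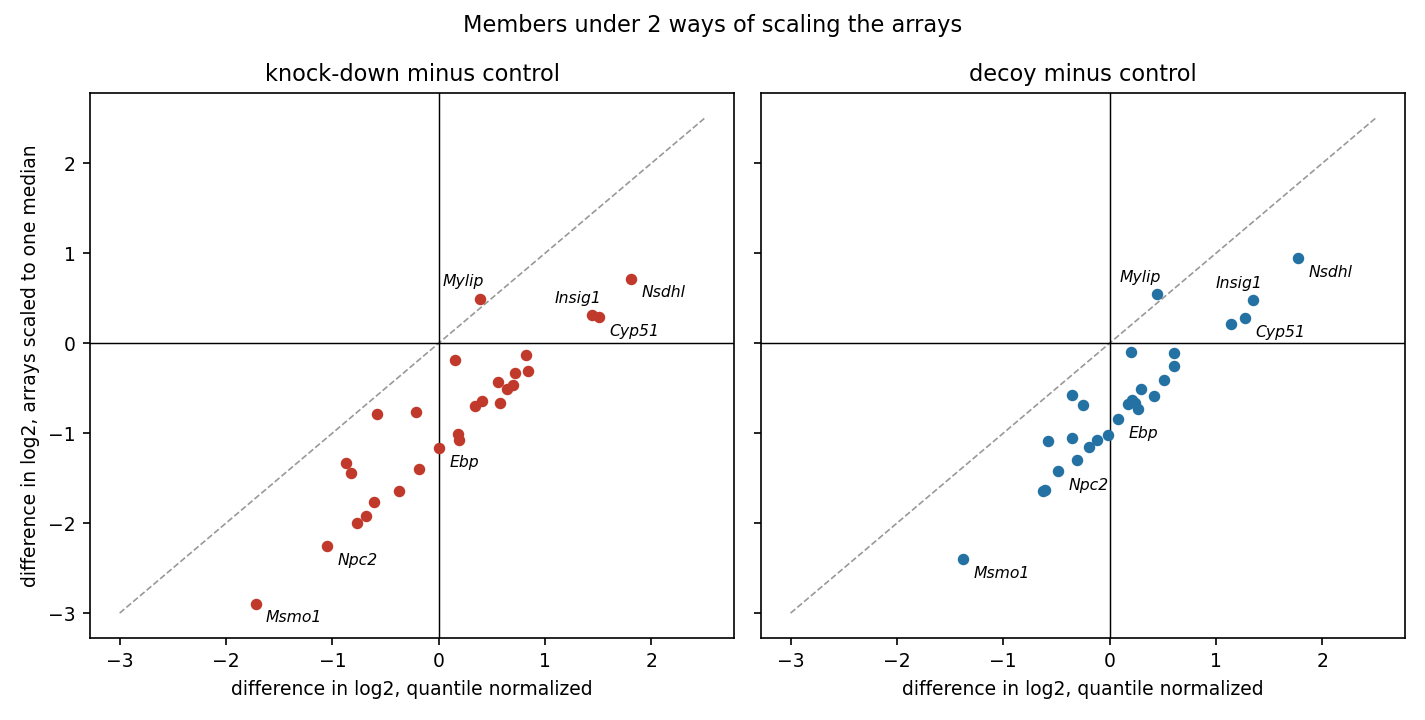
Difference from control of each of the 28 genes with quantile normalization (horizontal) against the same with arrays scaled to one median (vertical), in log2, for knock-down (left) and decoy (right); the dashed line marks equal values. All points but Mylip lie below the dashed line, and Nsdhl stays highest in both panels.

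Of the 7 genes that lead from acetyl-CoA units to squalene, 5 were tested. In knock-down cells 3 were called higher and 1 lower, and in decoy cells 1 higher and 0 lower. At an unadjusted p below 0.05, Pmvk was the 1 further gene of these in the decoy comparison. Fdps, the enzyme that joins isoprene units into farnesyl pyrophosphate, was the brightest. Its raw signals were 26399, 30847 and 27222 units in control, 28223, 21677 and 15197 in knock-down and 22800, 23166 and 20194 in decoy cells. The raw knock-down values overlapped control and the decoy values lay below it. After normalization the levels were 14.10 ± 0.0639 in control, 14.81 ± 0.128 in knock-down and 14.70 ± 0.128 in decoy cells (mean log2 ± SD, n = 3). Fdps was thus called higher by 1.64-fold (limma, adjusted p = 0.000593) and 1.52-fold (adjusted p = 0.00329), but lay at -0.33 and -0.26 in log2 with median scaling. A second Fdps probe gave 0.34 and 0.23 and was not called.

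Mvk and Pmvk, the kinases that phosphorylate mevalonate one after the other, went apart in knock-down cells. Raw signals of Mvk were 594, 631 and 628 units in control, 610, 432 and 381 in knock-down and 453, 435 and 311 in decoy cells. Those of Pmvk were 827, 1012 and 891, then 370, 307 and 262, then 462, 371 and 332. The Pmvk signals of both lines lay wholly below control, while those of Mvk in knock-down cells overlapped it. Mvk was called higher by 1.62-fold in knock-down cells (limma, adjusted p = 0.000985), with -0.47 in log2 under median scaling, and Pmvk was called lower by 1.53-fold (adjusted p = 0.002). In decoy cells neither was called, at 0.24 for Mvk and -0.31 for Pmvk. Mvd, which makes isopentenyl pyrophosphate, was called higher by 1.49-fold in knock-down cells (adjusted p = 0.0114), with -0.67 under median scaling, and gave 0.27 without a call in decoy cells. Without knock-down replicate 3 that call was lost (adjusted p = 0.0508). Idi1, the isomerase of that product, was above background on the control arrays only and was not called, at -0.22 and -0.26.

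From squalene to cholesterol all 10 listed genes were tested, and 3 were called higher and 3 lower in each line. The genes were the same: Cyp51, Nsdhl and Hsd17b7 higher, and Msmo1, Sc5d and Dhcr7 lower. Over all features 24.3% were called higher and 23.1% lower in knock-down cells, and 16.9% and 17.8% in decoy cells. With median scaling Hsd17b7 in knock-down cells changed sign. Cyp51, Msmo1, Nsdhl and Hsd17b7 strip methyl groups from the early sterols. Msmo1 carries out the first oxidation of a methyl pair, Nsdhl removes the oxidised carbon and Hsd17b7 reduces the ketone that is left. Msmo1 thus fell in both lines while Nsdhl rose on the probe used.

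Msmo1 gave raw signals of 1857, 1830 and 2230 units in control, 404, 307 and 252 in knock-down and 411, 394 and 378 in decoy cells. All 6 treated arrays lay far below all 3 control arrays. The normalized levels were 10.08 ± 0.173, 8.36 ± 0.0987 and 8.70 ± 0.127 (mean log2 ± SD, n = 3 each). It fell 3.30-fold in knock-down cells (-1.72, SE 0.143, limma, adjusted p = 2.35e-07) and 2.60-fold in decoy cells (-1.38, adjusted p = 4.54e-06).

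Nsdhl gave 451, 428 and 455 units in control, 778, 972 and 451 in knock-down and 803, 801 and 744 in decoy cells. Its raw decoy values lay above every control array, and in knock-down cells 2 arrays did while replicate 3 lay among the controls. The levels of this probe were 8.02 ± 0.0658, 9.83 ± 0.479 and 9.80 ± 0.162, a rise of 3.50-fold (1.81, SE 0.194, limma, adjusted p = 3.08e-06) and 3.42-fold (1.77, adjusted p = 7.63e-06). In control cells another Nsdhl probe was slightly brighter (mean log2 8.05), so the choice of probe hung on treated arrays. That other probe gave 0.14 without a call in knock-down cells and 0.79, called, in decoy cells. With median scaling Nsdhl was higher by 0.72 (adjusted p = 0.0244) and 0.95 (adjusted p = 0.00775).

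Cyp51, the demethylase that acts on lanosterol, gave 2082, 2103 and 2106 units in control, 3316, 2597 and 1678 in knock-down and 2268, 2745 and 2192 in decoy cells. The decoy arrays lay above control, and the knock-down arrays straddled it, with replicate 3 below. The levels were 10.19 ± 0.042, 11.70 ± 0.148 and 11.46 ± 0.23, and Cyp51 was called higher by 2.85-fold (limma, adjusted p = 1.28e-06) and 2.42-fold (adjusted p = 1.43e-05). With median scaling it gave 0.29 and 0.28 and was not called. Hsd17b7 gave 3560, 3525 and 3808 units in control, 3934, 2628 and 2084 in knock-down and 4384, 4665 and 2976 in decoy cells. Both treated groups overlapped control in raw signal. It was called higher by 1.79-fold (limma, adjusted p = 0.000121) and 2.21-fold (adjusted p = 1.48e-05), and with median scaling it lay at -0.31 in knock-down cells and 0.21 in decoy cells.

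**Figure D3:**
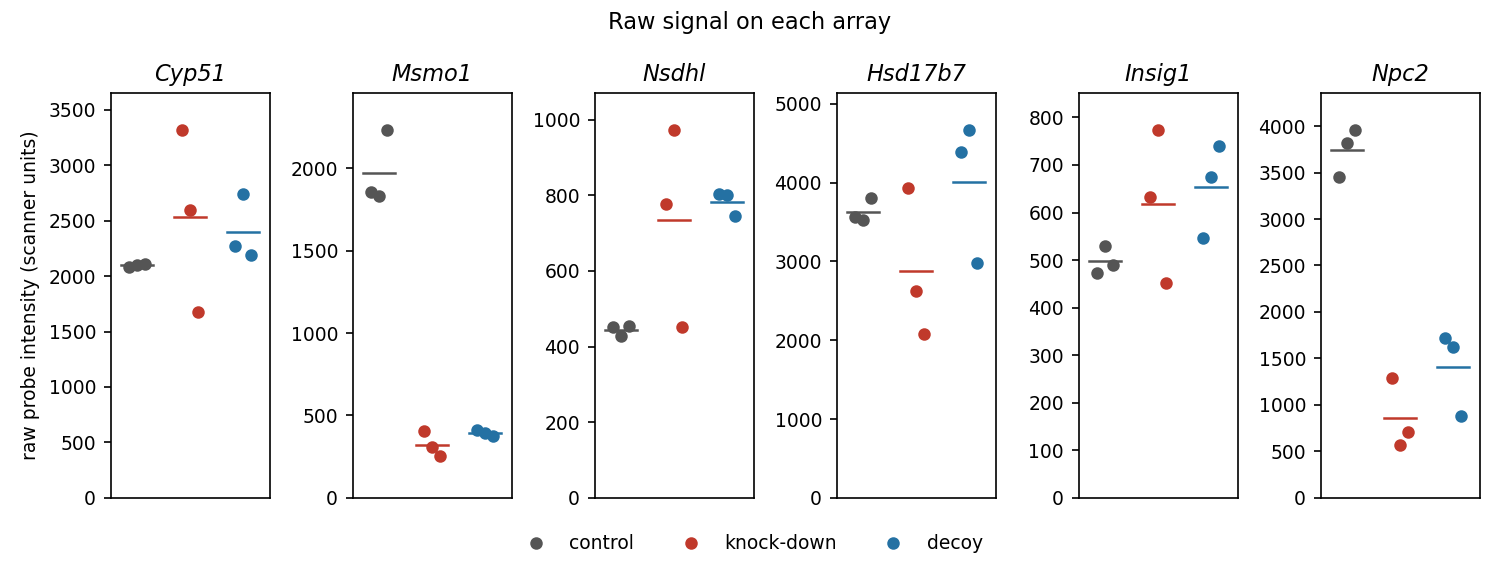
Raw probe intensity in scanner units on each of the 9 arrays for the 6 genes called with a difference of at least 2-fold in either comparison; points are arrays, replicates 1 to 3 from left to right, bars are group means, and each panel has its own axis from 0. Msmo1 and Npc2 are lower on every treated array, and knock-down replicate 3 is the lowest of its group for Cyp51, Msmo1, Nsdhl, Hsd17b7 and Insig1.

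Dhcr7, a late reductase of the pathway, gave 1275, 1466 and 1116 units in control, 403, 434 and 274 in knock-down and 452, 398 and 424 in decoy cells, with no overlap. It fell 1.70-fold (limma, adjusted p = 0.00187) and 1.54-fold (adjusted p = 0.0108). The decoy call was lost without control replicate 2 (adjusted p = 0.0622) or decoy replicate 2 (0.0533). Sc5d, a late desaturase, was above background on the 3 control arrays only, at 283, 351 and 339 units against 161 to 193 on the other 6. It was called lower in knock-down cells (-0.87, adjusted p = 0.000463), for which no fold is given, and by at least 1.03-fold in decoy cells (adjusted p = 0.0114, or 0.0525 without control replicate 2). Lss, which closes squalene epoxide into lanosterol, was not called at -0.18 and -0.20. Ebp, a sterol isomerase, was not called either at 0.01 and 0.08, though its raw signals of 3221 to 3707 units in control dropped to 1108 to 2279 elsewhere. Tm7sf2, a sterol reductase, was above background on 2 control arrays and was not called, at 0.16 and 0.20.

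Sqle, which oxidises squalene and is a rate-limiting step, depended on the probe. Its brightest probe gave 12590, 12183 and 14093 units in control, 9428, 9957 and 4531 in knock-down and 7864, 8087 and 7496 in decoy cells, and was not called at 0.34 and 0.21. A second probe gave 890, 1092 and 1166 units in control, 1705, 2661 and 1174 in knock-down and 1464, 1378 and 1999 in decoy cells. On that probe all 6 treated arrays lay above all 3 controls, while on the brighter one all 6 lay below. The second probe was higher by 4.14-fold in knock-down cells (limma over 27062 probes, adjusted p = 4.01e-05) and 3.26-fold in decoy cells (adjusted p = 0.000345).

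Such disagreement was not rare. In the fit over all kept probes, 22.6% were called higher and 23.9% lower in knock-down cells, and 16.1% and 18.2% in decoy cells. Of the tested genes, 7 had more than 1 probe above background on at least 3 arrays, 18 probes in all. Nsdhl had 4: a second gave 1.63 and 1.46 and was called in both lines, another 0.14 and 0.79 and was called in decoy cells, and the last 0.07 and 0.21 without a call. Probes of Insig1 and Npc1 were called in opposite directions in knock-down cells, and those of Npc1 also in decoy cells. Where on the transcripts these probes lie was not analysed here.

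**Figure D4:**
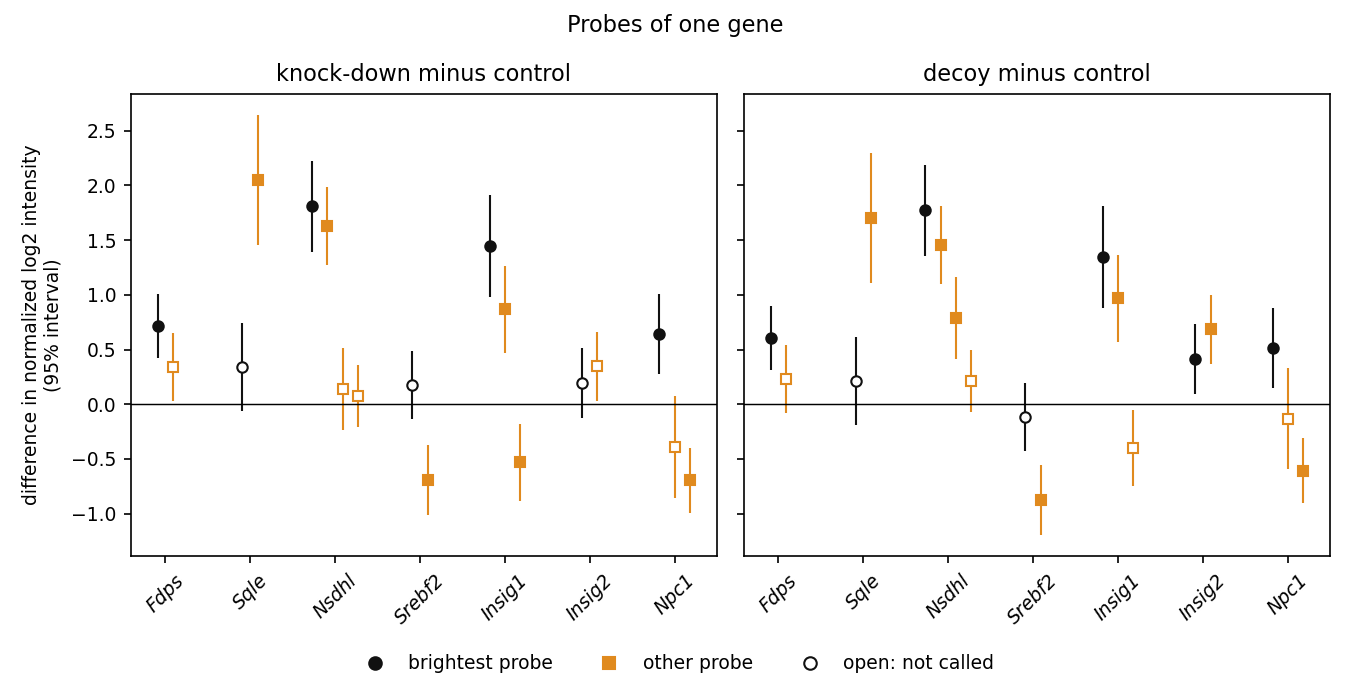
Differences from control in normalized log2 intensity, with 95% intervals (3 arrays a group), for each probe above background on at least 3 arrays of the 7 genes with several such probes; black circles are the brightest probe, orange squares the others, and filled symbols are called. Fdps, Sqle, Nsdhl, Srebf2, Insig1 and Npc1 have probes that differ in direction or in call.

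The reference promoters of the 4 genes with the largest changes in both lines are shown because these genes share a pathway and moved apart: Nsdhl, Cyp51 and Insig1 were called higher, the last 2 of them not so with median scaling, and Msmo1 was lower. For Nsdhl and Insig1 this holds for the probe used, and other probes of these genes differed in call or direction. Each promoter is 300 bases, 250 before and 50 after the start site, 5′ to 3′ on the gene's strand, from RefSeq on GRCm38.p6. Capitals mark ATTGG or CCAAT, the box bound by NF-Y beside SREBP sites, and TGGAAA or TTTCCA, a core of NFAT sites. They would also mark CACCCCA, a core of sterol regulatory elements, on either strand, but these 4 windows hold none. Nsdhl lies at chrX:72918271-72918570 (plus strand), Cyp51 at chr5:4104648-4104947 (minus), Insig1 at chr5:28071162-28071461 (plus) and Msmo1 at chr8:64733529-64733828 (minus).
Nsdhl: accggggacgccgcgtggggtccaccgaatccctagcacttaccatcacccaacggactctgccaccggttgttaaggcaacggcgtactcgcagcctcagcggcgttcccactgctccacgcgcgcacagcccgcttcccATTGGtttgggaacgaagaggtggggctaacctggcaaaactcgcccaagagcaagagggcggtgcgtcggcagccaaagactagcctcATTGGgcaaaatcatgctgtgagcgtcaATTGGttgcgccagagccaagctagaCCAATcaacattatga
Cyp51: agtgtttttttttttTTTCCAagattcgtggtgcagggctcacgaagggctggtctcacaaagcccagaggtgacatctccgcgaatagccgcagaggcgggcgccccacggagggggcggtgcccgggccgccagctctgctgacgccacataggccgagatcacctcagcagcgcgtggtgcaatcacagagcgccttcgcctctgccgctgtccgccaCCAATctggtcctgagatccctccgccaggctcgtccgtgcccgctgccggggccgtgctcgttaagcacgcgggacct
Insig1: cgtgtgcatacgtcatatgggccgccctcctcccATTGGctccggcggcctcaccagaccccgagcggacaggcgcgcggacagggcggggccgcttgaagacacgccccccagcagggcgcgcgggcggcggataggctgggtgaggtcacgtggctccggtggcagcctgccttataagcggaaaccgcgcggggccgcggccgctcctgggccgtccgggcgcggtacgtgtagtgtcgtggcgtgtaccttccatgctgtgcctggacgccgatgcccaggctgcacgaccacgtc
Msmo1: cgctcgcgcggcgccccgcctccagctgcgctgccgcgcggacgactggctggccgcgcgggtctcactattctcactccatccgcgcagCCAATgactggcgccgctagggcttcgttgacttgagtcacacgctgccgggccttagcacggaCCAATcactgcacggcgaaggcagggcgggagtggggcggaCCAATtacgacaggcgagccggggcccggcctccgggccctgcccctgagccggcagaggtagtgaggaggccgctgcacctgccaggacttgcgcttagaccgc
Nsdhl has 4 CCAAT boxes in its window, Msmo1 3, and Cyp51 and Insig1 1 each, so the gene that fell and the gene that rose most both hold several. Cyp51 alone of the 4 holds TGGAAA, 235 bases before the start.

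Promoters were found for 26 of the 33 genes, with 37 windows, beside 32851 windows of all genes. The CCAAT box (ATTGG on either strand) was in 22 of the 37 windows (59.5%) and in 37.4% of all. CACCCCA was in 4 (10.8%, against 7.62% of all), those of Hmgcs1, Srebf2, Apoe and Soat1. TGGAAA was in 10 windows (27%, against 21.4%), of Idi1, Cyp51, Tm7sf2, Ebp, Srebf1, Scap and Apoe. The shorter GGAAA, which every TGGAAA contains, was in 22 (59.5%, against 61.3%). The E-box CANNTG was in 29 (78.4%, against 72.3%) and the LXR core AGGTCA in 5 (13.5%, against 16.3%), of Hmgcs1, Dhcr7 and Insig1. The full TonE consensus of NFAT5 was in 0 of the 37 windows and 4.96% of all, and the paired LXR site DR4 in 0 and 0.0152%. All were searched on both strands. Windows of one gene can overlap, and a match of letters is not a bound site.

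All 5 genes that control the SREBP factors were tested, and 2 were called higher and 1 lower in each line. Insig1, which holds Scap in the endoplasmic reticulum and is itself an SREBP target, gave 473, 529 and 490 units in control, 632, 773 and 451 in knock-down and 547, 675 and 739 in decoy cells. Every decoy array lay above control, and knock-down replicate 3 lay below. The levels were 8.16 ± 0.045, 9.61 ± 0.419 and 9.51 ± 0.447 (mean log2 ± SD, n = 3 each). Insig1 was called higher by 2.72-fold (limma, adjusted p = 7.65e-05) and 2.54-fold (adjusted p = 0.000261), and gave 0.31 and 0.48 without a call under median scaling. A second Insig1 probe gave 0.87 and 0.97, called in both lines. The remaining one, at 813, 1033 and 1012 units in control against 290 to 442 on the other 6 arrays, was called lower in knock-down cells (-0.53, limma over all probes, adjusted p = 0.0156) and gave -0.40 without a call in decoy cells. In control cells this probe was brighter than the one used for Insig1 (mean log2 9.02 against 8.16). The probe used was thus the brightest only through treated arrays, so its calls alone do not settle the direction of the gene.

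Insig2, its relative, was called higher in decoy cells alone of the 2 comparisons (1.33-fold, adjusted p = 0.0429), where median scaling gave -0.59. The knock-down gave 0.20, and the difference between the lines was -0.22 (95% interval -0.54 to 0.10), which was not called. Its decoy call was lost when any one control or decoy array was left out (adjusted p = 0.065 to 0.127). A second Insig2 probe, above background on all 9 arrays, gave 0.34 without a call in knock-down cells. In decoy cells that probe was called higher by 1.61-fold (limma over all probes, adjusted p = 0.00286). Scap gave 1237, 1392 and 1431 units in control, 517, 301 and 404 in knock-down and 484, 544 and 347 in decoy cells. All treated arrays lay below control, and Scap was called lower by 1.61-fold (adjusted p = 0.0191) and 1.53-fold (adjusted p = 0.0437). The knock-down call was lost without control replicate 2 (adjusted p = 0.0518), control replicate 3 (0.0608) or knock-down replicate 2, without which the difference was -0.39 (0.0971). The decoy call was lost without any control array, knock-down replicate 1, decoy replicate 1 or decoy replicate 3 (adjusted p = 0.0522 to 0.135). Srebf1, the gene of the SREBP that favours fatty acid synthesis, was called higher in knock-down cells (1.33-fold, adjusted p = 0.0468), with -0.64 under median scaling, and gave 0.17 in decoy cells. That call was lost without any one control or knock-down array or decoy replicate 2 (adjusted p = 0.0534 to 0.125). Srebf2, whose product favours cholesterol synthesis, was not called on its brightest probe, at 0.18 and -0.12. A second Srebf2 probe, at 1171, 1194 and 1155 units in control, 523, 357 and 257 in knock-down and 402, 343 and 297 in decoy cells, was called lower by 1.62-fold (limma over all probes, adjusted p = 0.00169) and 1.84-fold (adjusted p = 0.000478).

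Of the LXR receptors, Nr1h3, the form enriched in macrophages and liver, was tested. Its raw signals hardly moved: 358, 366 and 332 units in control, 361, 338 and 315 in knock-down and 320, 320 and 331 in decoy cells. The raw decoy values lay just below control and the knock-down values overlapped it. After normalization Nr1h3 was called higher by 1.76-fold in knock-down cells (8.56 ± 0.314 against 7.74 ± 0.0647, limma, adjusted p = 0.00102) and 1.52-fold in decoy cells (8.35 ± 0.214, adjusted p = 0.0112, or 0.051 without control replicate 3). With median scaling it lay at -0.13 and -0.11, above the shift of all features in both.

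Of the 5 genes of export, lipoprotein handling and LXR response, 4 were tested. In knock-down cells 2 were called higher and 2 lower, and in decoy cells 1 higher and 0 lower, where Abcg1 had an unadjusted p below 0.05. Lpl, the lipase that macrophages secrete to release fatty acids from lipoproteins, was the brightest, at 17585, 20056 and 18198 units in control, 15443, 13811 and 10116 in knock-down and 12023, 14163 and 10786 in decoy cells. Every treated array lay below control in raw signal. The normalized levels were 13.51 ± 0.0556, 14.07 ± 0.234 and 13.81 ± 0.142, and Lpl was called higher by 1.47-fold in knock-down cells (limma, adjusted p = 0.00633), with -0.44 under median scaling, and gave 0.29 without a call in decoy cells.

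Abcg1, the transporter that loads cholesterol onto HDL, gave 411, 385 and 432 units in control, 203, 213 and 179 in knock-down and 234, 213 and 214 in decoy cells, all below control. It was above background on 4 of the 9 arrays and was lower by at least 1.09-fold in knock-down cells (-0.82, adjusted p = 0.000258), with -0.35 in decoy cells (adjusted p = 0.0683, or 0.0407 without knock-down replicate 3). Apoe, which macrophages release with cholesterol, was above background on 2 control arrays, at 177, 222 and 260 units against 147 to 189 elsewhere. It was called lower in knock-down cells (-0.58, adjusted p = 0.0096, or 0.0615 without control replicate 3), with no fold given, and not in decoy cells (-0.35). Mylip, a ubiquitin ligase raised by LXR, was called higher in both lines (0.39, adjusted p = 0.0367, and 0.45, adjusted p = 0.0255) at signals of 113 to 118 units in control and 152 to 190 elsewhere. The knock-down call was lost without any control array or knock-down replicate 1 or 2 (adjusted p = 0.0528 to 0.127), and the decoy call without any control array or decoy replicate 1 or 3 (0.0604 to 0.103). None of the 9 arrays showed Mylip above background, and the raw medians of all probes were 150 to 158 units in control and 156 to 187 elsewhere. It exceeded the array median on no control array and passed the filter on dim probes only through knock-down and decoy arrays. Being tested thus hung on the groups where it is high, so its calls are no support for a rise. In knock-down cells Nr1h3, Lpl and Mylip were thus called higher and Abcg1 and Apoe lower. Median scaling turned the sign of Nr1h3 and Lpl. Neither Abcg1 nor Apoe was above background on a knock-down array.

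Of the 4 transport and storage genes, 3 were tested, with 1 called higher and 1 lower in knock-down cells and 1 higher and 0 lower in decoy cells. Npc1 and Npc2 work as a pair that passes cholesterol out of the lysosome, and they were called in opposite directions in knock-down cells. Npc2, the soluble partner, gave 3452, 3820 and 3955 units in control, 1292, 564 and 708 in knock-down and 1716, 1624 and 880 in decoy cells. All treated arrays lay well below control. The levels were 11.09 ± 0.0725, 10.04 ± 0.47 and 10.61 ± 0.316 (mean log2 ± SD, n = 3 each), and Npc2 fell 2.07-fold in knock-down cells (limma, adjusted p = 0.00076). In decoy cells it gave -0.48 with an unadjusted p below 0.05 (adjusted p = 0.0836, or 0.0259 without knock-down replicate 2). Npc1, the membrane partner, gave 4390, 4484 and 3622 units in control, 5151, 2323 and 1824 in knock-down and 3571, 3557 and 2029 in decoy cells. The knock-down arrays of Npc1 fell on both sides of control and the decoy arrays below it. Its brightest probe was called higher by 1.56-fold (adjusted p = 0.00593) and 1.42-fold (adjusted p = 0.0299), with -0.50 and -0.41 under median scaling. The decoy call was lost without control replicate 2 or 3 or decoy replicate 1 or 2 (adjusted p = 0.0656 to 0.145). The dimmest, at 740 to 763 units in control and 238 to 326 elsewhere, was called lower by 1.62-fold (limma over all probes, adjusted p = 0.000954) and 1.52-fold (adjusted p = 0.00393), and the second gave -0.39 and -0.13 without a call. Stard4, which carries sterols through the cytosol, was not called, at -0.37 and -0.02, with raw values in decoy cells from 481 to 1540 units.

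The knock-down and decoy lines were also compared directly. limma called 0 of the 28 genes, beside 3.65% of all features, and 6 had an unadjusted p below 0.05, beside 19.6% of features. These 6 were Mvk, Pmvk, Msmo1, Hsd17b7, Abcg1 and Npc2. The differences ran from -0.57 for Npc2 (95% interval -1.01 to -0.13, adjusted p = 0.144) to 0.46 for Mvk (0.16 to 0.76, adjusted p = 0.0896), with a median of -0.0155. Abcg1 had the smallest adjusted p, 0.0829, at -0.47. For Nsdhl the interval of the difference was -0.38 to 0.45, for Cyp51 -0.08 to 0.55 and for Insig1 -0.36 to 0.56, so differences of those sizes between the lines are not excluded. Set side by side, 8 genes were called higher in both comparisons with control and 4 lower in both, 4 were higher and 4 lower in knock-down cells alone, Insig2 was higher in the decoy alone, 7 were called in neither and 0 in opposite directions. The shared control arrays enter both calls. Over all features 24.3% were called higher and 23.1% lower in knock-down cells, and 16.9% and 17.8% in decoy cells. The share of all features called the same way in both was not counted. These joint counts therefore cannot be read as a trait of the sterol genes.

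Other genes around sterols were read from 4 further lists. Beside their counts, 24.3% of all features were called higher and 23.1% lower in knock-down cells, and 16.9% and 17.8% in decoy cells. Of 12 genes that help the sterol enzymes, 8 were tested: 3 were called higher and 2 lower in knock-down cells and 2 and 2 in decoy cells, with medians of 0.083 and -0.106. Cyb5a, the cytochrome that hands electrons to sterol and fatty acid oxidases, fell from 21684 to 22396 units in control to 2724 to 6651 in knock-down and 6282 to 8201 in decoy cells. That was 2.60-fold (limma, adjusted p = 1.95e-06) and 1.69-fold (adjusted p = 0.000793). Lbr, a sterol reductase of the nuclear envelope, fell 1.81-fold and 1.44-fold, though the mean over its probes gave 0.02 and 0.45. Its decoy call was also lost without any one control array, decoy replicate 2 or decoy replicate 3 (adjusted p = 0.0669 to 0.15). Ebpl, a relative of Ebp, was called higher by 1.56-fold and 1.51-fold, with -0.49 and -0.34 under median scaling. Of 10 genes that process SREBP or Insig, 8 were tested, with 2 called higher and 1 lower in knock-down cells and 4 and 1 in decoy cells. Rnf145, a ubiquitin ligase of the endoplasmic reticulum, fell 1.93-fold and 1.80-fold. Erlin2 was called higher by 1.45-fold and 1.34-fold, with -0.74 and -0.59 under median scaling. Its decoy call was lost without any one control array or decoy replicate 2 (adjusted p = 0.0516 to 0.0817) and with the mean over its probes (0.22). Paqr3, a Golgi anchor of Scap, was above background on none of the arrays.

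Of 15 LXR partners and targets, 7 were tested: 4 were called higher and 1 lower in knock-down cells, and 3 and 1 in decoy cells. Rxrb, a receptor that pairs with LXR, was called higher by 1.90-fold and 1.55-fold, with -0.20 and -0.29 under median scaling. The mean over its probes gave 0.26 and 0.14 without a call, and the decoy call was lost without any one control array, decoy replicate 1 or decoy replicate 2 (adjusted p = 0.0577 to 0.128). The apolipoprotein gene Apoc2, above background on 2 of the 3 knock-down arrays, was called higher by 1.57-fold and 1.61-fold, but median scaling gave 0.05 and 0.23 and the mean over its probes 0.19 and 0.22, without a call. Med1, a coactivator, fell 1.81-fold and 1.48-fold, and the mean over its probes gave -0.20 without a call in decoy cells. Of 18 genes of sterol transport and oxysterols, 16 were tested, with 8 called higher and 6 lower in knock-down cells and 1 and 7 in decoy cells. Several oxysterol-binding proteins, which move lipids between membranes, were among the falls. Osbpl9, of the same family, was called higher in knock-down cells instead (0.87, limma, adjusted p = 0.000371) and gave 0.24 without a call in decoy cells. Median scaling put it at -0.18 and -0.62. Osbp fell from 916 to 1110 units in control to 185 to 251 in knock-down and 238 to 256 in decoy cells, or 3.42-fold (limma, adjusted p = 5.25e-07) and 2.44-fold (adjusted p = 2.6e-05). Of the knock-down arrays, 1 of 3 had Osbp above background, so its level there is partly a bound. Osbpl8 fell 2.2-fold and 1.86-fold, and the mean over its probes gave -0.28 without a call in decoy cells. Osbpl11, above background on the control arrays only, was called lower in both lines, by at least 1.07-fold in decoy cells.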

How the data were processed

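RNA from 9 RAW264.7 samples was hybridised to Illumina bead arrays, 3 a group by their titles. The authors deposited raw probe intensity values as whole numbers, without detection p-values or control probes, as the values show. 2042 blank rows were dropped. The authors also deposited log2 values, used as an alternative. The submitters' processing notes name R 2.9.1. How these values were normalized was not found there.

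Intensities were corrected with normexp (offset 50), taken to log2 and quantile normalized in limma 3.58.1 (R 4.3.3). Of 45281 probes, 27062 above the array's median on at least 3 arrays were kept. Symbols came from the platform annotation: 34885 probes had 1, 18 several and 10378 none, and 0 changed when updated. A gene was its brightest kept probe, and other probes were tested in a fit over all kept probes. lmFit and eBayes fitted 3 group means over 9 arrays, two-sided, with Benjamini-Hochberg adjustment over all features and calls below 0.05. The scripts were tested on simulated data.

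The background limit lay 3 SD, taken from the lower side, over the mode of the log2 signals on that array. "At least" folds set the brighter group's mean against, per array of the dimmer group, either its lowest signal over the limit or the probe's signal, whichever is greater, and no fold is given where this is under 1 or both groups are dim. Signals of 60000 units or more, reached by 7 to 140 probes an array, were taken as saturated. The number of arrays limits the precision.

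The genes and lists were chosen with earlier results of these data known. Every tested gene of the list is named. Array values are given for differences of at least 2-fold, for the brightest gene of a role without one, and for others where they help. From each further list up to 3 called genes of smallest F-test p are named, and Osbpl9 was chosen after its values were seen. Replicate numbers were not used to pair the samples. Correlations of deviations between same-numbered control and treated arrays were -0.0405 to 0.0311, and between knock-down and decoy 0.285, -0.217 and -0.0941. Differently numbered knock-down and decoy arrays gave -0.293 to 0.378. With 3 arrays a group these values cannot exclude a pairing or a shared batch. Alternatives varied the normalization and background step, the starting values (those of the authors), how probes were filtered or averaged, the variance prior, weights for arrays, a replicate block, which groups entered the fit, and left out each array.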

Additional observations from a re-analysis of the deposited data

Results flagged for a closer look

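None of the 28 tested sterol genes differed between the knock-down and decoy lines by a called amount in limma. Beside them, Nfat5 and 3 genes of the further lists did, each by a test of the knock-down against the decoy arrays. Nfat5 was lower in knock-down cells by -0.542 in log2 (adjusted p = 0.0355). That call was lost in 12 of 21 alternatives (adjusted p = 0.0521 to 0.591), and the mean over the Nfat5 probes gave -0.131. Cyb5a was lower by -0.62 (adjusted p = 0.0243), with raw ranges that overlapped at 2724 to 6651 units against 6282 to 8201. It was lost in 10 of the 21 (adjusted p = 0.0519 to 0.334). Osbpl9, an oxysterol-binding protein relative, was higher in knock-down cells by 0.631 (adjusted p = 0.039), at 6089 to 8966 units against 5329 to 5873. It too was lost in 10 (adjusted p = 0.0537 to 0.37). The losses of all 3 include median scaling, array weights, a fit of the 2 groups alone, and leaving out any one control array, knock-down replicate 3 or decoy replicate 1. Nfat5 also lost it with a replicate block, with the mean over probes and without decoy replicate 2 or 3, Cyb5a without knock-down replicate 2 or decoy replicate 3, and Osbpl9 without knock-down replicate 2 or decoy replicate 2. Fabp3, a carrier of fatty acids in the cytosol, was lower by -1.44 (adjusted p = 5.19e-05), a call kept under all 21. Its raw signals were 264, 314 and 233 units in control, 203, 194 and 180 in knock-down and 385, 376 and 278 in decoy cells, and it was above background on none of the knock-down arrays, so the decoy cells were higher by at least 1.56-fold. No cause of these differences was tested.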

How the results depend on the processing

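Over 21 alternatives (12 settings and 9 left-out arrays), 7 of the 20 knock-down calls kept direction and threshold under all: Pmvk, Msmo1, Nsdhl, Sc5d, Dhcr7, Abcg1 and Npc2. In decoy cells Msmo1 and Nsdhl did, 2 of 13. No alternative chose a gene's probe by its control signal alone, and for Nsdhl and Insig1 that would have taken another probe. Median scaling moved the counts of sterol genes called higher and lower against control more than any other alternative. It called 2 genes higher and 18 lower in each comparison with control. Of the 18830 features it called about 1580 higher and 9060 lower in knock-down cells, and 1310 and 8090 in decoy cells. Between the lines it called 44 features in place of 687. Its values with changed sign, in log2 for knock-down and decoy, were -0.466 and -0.666 for Mvk, -0.67 and -0.734 for Mvd, -0.329 and -0.256 for Fdps, -0.6995 and -0.635 for Sqle, -1.17 and -0.846 for Ebp, -0.641 and -0.674 for Srebf1, -1.08 and -0.593 for Insig2, -0.132 and -0.109 for Nr1h3, -0.437 and -0.507 for Lpl and -0.504 and -0.405 for Npc1. In knock-down cells alone it turned Hsd17b7 (-0.313), Srebf2 (-1.01) and Acss2 (-0.0258). Among the further genes it gave -0.488 and -0.338 for Ebpl, -0.743 and -0.585 for Erlin2, -0.0394 and -0.142 for Fads2, -0.203 and -0.288 for Rxrb, -0.0961 and -0.358 for Pnpla2, -0.117 and -0.171 for Lpin1, -0.047 and -0.275 for Acadm and -0.1787 and -0.6211 for Osbpl9. The mean over a gene's probes turned Nfat5 (0.0183 and 0.149), Npc1 (-0.178 and -0.114), Lbr (0.0242 and 0.455) and Fads2 in decoy cells (-0.0234). Cyclic loess called 7 genes lower in decoy cells. Between the lines, array weights called 375 features and a fit of the 2 groups alone 222. The cause of these changes was not tested. With a replicate block, the features called were 8757 in knock-down and 6304 in decoy cells against control, and 583 between the lines. Of the sterol genes, 11 were then called higher and 8 lower in knock-down cells, and 8 and 4 in decoy cells. Leaving out one array in turn gave 6876 to 9368, 4391 to 7354 and 213 (without decoy replicate 1) to 1566 (without knock-down replicate 1) features, and 6185 to 9276 in the F test of any difference among the 3 groups. The sterol genes called were then 10 to 12 higher and 6 to 8 lower in knock-down cells, 5 (without control replicate 3) to 9 higher and 1 (without control replicate 2) to 5 lower in decoy cells, 0 between the lines and 13 to 20 by the F test. Genes near the background limit (Idi1, Sc5d, Tm7sf2, Abcg1, Apoe, Mylip, Fasn, Osbp, Osbpl11, Agpat3 and Fabp3) have levels that are bounds or close to them.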

Other observations

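Fatty acid genes next to the sterol pathway were also read from lists. Beside their counts, 24.3% of all features were called higher and 23.1% lower in knock-down cells, and 16.9% and 17.8% in decoy cells. Of 18 genes of fatty acid synthesis, 16 were tested, and 4 were called higher and 2 lower in each line. Acss2, which activates acetate to acetyl-CoA, gave 827, 856 and 793 units in control, 954, 800 and 658 in knock-down and 970, 992 and 675 in decoy cells. Its raw ranges overlapped control in both lines, and it was called higher by 2.33-fold (limma, adjusted p = 1.12e-05) and 2.18-fold (adjusted p = 4.69e-05), but median scaling gave -0.03 and 0.15 without a call. Fads2, a desaturase, was called higher by 2.32-fold and 1.82-fold, with -0.04 and -0.14 under median scaling and 0.19 and -0.02 as the mean over its probes. Fasn, the fatty acid synthase, was above background on the control arrays only, at 253 to 277 units against 134 to 177, and was called lower in both lines (adjusted p = 0.000115 and 0.00876), with no fold given.

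Of 19 lipid droplet genes, 18 were tested, with 8 called higher and 3 lower in knock-down cells and 6 and 3 in decoy cells. Pnpla2, the lipase that starts the breakdown of stored fat, was called higher by 2.16-fold (limma, adjusted p = 1.22e-05) and 1.53-fold (adjusted p = 0.00297), with -0.10 and -0.36 under median scaling. Lpin1, a phosphatidate phosphatase, was called higher by 1.70-fold and 1.40-fold, with -0.12 and -0.17 under median scaling and 0.10 and 0.05 as the mean over its probes. Its decoy call was also lost without control replicate 3 (adjusted p = 0.0542) or decoy replicate 1 (0.059). Agpat3, an acyltransferase above background on 1 knock-down and 2 decoy arrays, fell 2.40-fold and 2.19-fold. Of 21 genes of fatty acid uptake and oxidation, 13 were tested, with 4 called higher and 4 lower in knock-down cells and 4 and 2 in decoy cells. Acadm and Hadhb, which work in mitochondrial fatty acid oxidation, went apart. Acadm was called higher by 2.08-fold and 1.55-fold, with -0.05 and -0.28 under median scaling, and Hadhb fell 2.06-fold and 1.68-fold. Both comparisons share the control arrays.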
